A study of Mus musculus with 4 samples.

Results

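The 1275 sites described here were bound by the glucocorticoid receptor (GR) after both 1 h and 12 h of corticosterone in mouse mammary cells. Their tag counts, scaled to the library total, were moderately lower at 12 h than at 1 h. A peak of the 1 h list was a member when it overlapped a peak of the 12 h list by 1 bp or more. The scaled 12 h tag count divided by the scaled 1 h tag count also had to lie above 0.5 and below 1. Members were 22.6% of the 5638 sites listed at 1 h and 52.3% of the 2436 sites listed at both times. Of the other sites listed at both times, 599 had a ratio of 0.5 or less and 562 a ratio of 1 or more, and 3202 peaks were in the 1 h list only. The members were selected on the measured tags at both times, so their ratios are a description and no test was made on them.

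GR is a nuclear receptor that corticosterone, the main glucocorticoid of mice, brings into the nucleus. There it binds DNA as a dimer at inverted repeats of the bases AGAACA, the glucocorticoid response element, or is recruited by other factors such as AP-1. Most of its sites in epithelial cells lie away from gene starts, in enhancers, and occupancy at a site is known to change with the time and the pattern of hormone exposure.

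GR-bound DNA was precipitated and sequenced (ChIP-seq) in 33AP1C9 cells, a derivative of the C127 mouse mammary epithelial line. Per the labels, every group carried stably integrated MMTV-pp7 reporter copies and a GFP-tagged PP7 coat protein, and was kept in charcoal-dextran treated serum before hormone. The groups were untreated cells, cells given 600 nM corticosterone for 1 h, and cells given 600 nM for 12 h, with 1 library each. The labels name a GR antibody cocktail, of which 1 catalogue number differs between the samples. The libraries held 79203826 tags untreated, 90556119 at 1 h and 97749688 at 12 h, of which 1.68% at 1 h and 0.81% at 12 h lay in listed peaks. Tag values below are the deposited counts scaled to 10000000 tags per library (normalised tags) unless called raw. With 1 library per condition no replicate check or test across conditions was possible, and the 95% intervals cover counting error only and compare the libraries. Peak lists hold no expression values, so the labelled cell type was not checked against markers.

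Sequence was at hand for gene starts, and 19 members (1.49%, Wilson 95% interval 0.956 to 2.32%) overlapped a RefSeq promoter window of 300 bases, from 250 before to 50 after a start. For 8 of them the gene was protein-coding. In 3 of these 8 windows (Sgk1, Slc10a6 and Map7d2) a GR pattern with both arms, spelled out below, lay inside the member peak. These 3 windows are shown because the match lies close to the peak centre. The window of Tns2 is shown beside them as the promoter member with the most tags. All are in GRCm38.p6, 5′ to 3′ on the strand of the gene, and capitals mark the match to the GR pattern, of which the Tns2 window has none. The Sgk1 window is chr10:21993640-21993939 (plus strand), the Slc10a6 window chr5:103629354-103629653 (minus), the Map7d2 window chrX:159458875-159459174 (plus) and the Tns2 window chr15:102102684-102102983 (plus).
Sgk1: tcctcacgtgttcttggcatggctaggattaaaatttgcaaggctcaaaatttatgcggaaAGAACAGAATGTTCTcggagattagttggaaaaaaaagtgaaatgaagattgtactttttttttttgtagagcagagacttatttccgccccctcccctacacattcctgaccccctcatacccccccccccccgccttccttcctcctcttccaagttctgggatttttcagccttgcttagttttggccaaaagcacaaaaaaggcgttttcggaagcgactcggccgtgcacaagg
Slc10a6: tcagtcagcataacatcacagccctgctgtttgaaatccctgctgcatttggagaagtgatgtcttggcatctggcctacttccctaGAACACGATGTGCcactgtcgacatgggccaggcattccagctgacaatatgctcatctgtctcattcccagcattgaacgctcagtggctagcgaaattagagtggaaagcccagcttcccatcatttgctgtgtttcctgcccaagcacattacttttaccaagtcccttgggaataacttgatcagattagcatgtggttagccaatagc
Map7d2: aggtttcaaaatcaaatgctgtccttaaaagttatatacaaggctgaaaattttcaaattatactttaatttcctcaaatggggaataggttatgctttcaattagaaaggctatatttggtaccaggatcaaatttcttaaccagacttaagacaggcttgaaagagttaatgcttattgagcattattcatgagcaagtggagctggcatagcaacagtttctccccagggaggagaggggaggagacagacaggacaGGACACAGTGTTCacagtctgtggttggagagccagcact
Tns2: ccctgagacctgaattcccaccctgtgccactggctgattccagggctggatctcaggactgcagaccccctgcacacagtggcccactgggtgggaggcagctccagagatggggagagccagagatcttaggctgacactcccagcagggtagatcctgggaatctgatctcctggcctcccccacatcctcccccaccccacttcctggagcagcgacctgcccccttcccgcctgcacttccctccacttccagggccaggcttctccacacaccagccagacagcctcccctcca

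Sgk1, the serum- and glucocorticoid-regulated kinase gene, had the complete palindrome (AGAACA, any 3 bases, TGTTCT), centred 182 bases before the annotated start and 33 bp from the centre of the 1 h peak. The peak there (chromosome 10, 21993534 to 21993816) held 34.2 tags at 12 h and 46.9 at 1 h, with 9 raw tags in the untreated library, and a ratio of 0.729 (95% interval 0.629 to 0.842). This complete palindrome was in 3 of the 32851 promoter windows of the table (0.00913%). Slc10a6 encodes a transporter of sulphated steroids. Its match was centred 157 bases before the start and 1 bp from the 1 h peak centre, under 98.6 tags at 12 h and 129.3 at 1 h (ratio 0.763, 0.70 to 0.831), with 14 raw tags untreated. Map7d2, a microtubule-associated protein gene, had its match 16 bases after the start and 13 bp from the peak centre, under 13.7 tags at 12 h and 20.3 at 1 h (ratio 0.675, 0.536 to 0.847), with 10 raw tags untreated. All 3 intervals lay below 1.

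The looser pattern GNACA, any 3 bases, TGTNC, which every complete palindrome contains, was added after the windows had been seen. All patterns were searched on both strands. The looser pattern was found in 156 of 32851 windows (0.475%) and in 3 of the 21 windows that members overlapped. Of the windows under sites with a ratio of 0.5 or less it was in 6 of 16, under sites with a ratio of 1 or more in 3 of 8, and under sites listed at 1 h only in 4 of 55. The single arm AGAACA, which lies within the palindrome, was in 9 of the 21 windows under members, 4 of 16 under ratios of 0.5 or less, 3 of 8 under ratios of 1 or more, 13 of 55 under sites at 1 h only and 19% of all windows. The AP-1 pattern TGANTCA was in 4, 2, 1 and 13 of these windows, in the same order of classes, and in 7.81% of all windows. Neighbouring windows of 1 locus can share bases, no test was made on these counts, and a match or its absence says only which letters are in the window. The remaining protein-coding promoter members were at Tns2, Phyhd1, Sorbs2, Ampd3 and Omd. Tns2, which encodes the adhesion protein tensin 2, held 111 tags at 12 h and 186.5 at 1 h (ratio 0.595, 0.551 to 0.643), and 102 bp of its peak lay in the window. Sorbs2, an actin-linked adaptor gene, held 13.1 and 26.1 tags at 12 h and 1 h. In the Sorbs2 window a single arm AGAACA lay inside the peak, 9.5 bp from the 1 h centre. Phyhd1, a dioxygenase gene, held 24.0 and 40.3 tags at 12 h and 1 h. Ampd3, an AMP deaminase gene, held 14.7 and 25.3 tags in the same order, and Omd, which encodes the matrix protein osteomodulin, 15.1 and 19.8. All 8 promoter sites had intervals wholly below 1.

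Over all members, the mean was 31.1 normalised tags at 12 h and 44.0 at 1 h. The 12 h values lay between 6.96 and 293.8 with a median of 19.3, and the 1 h values between 8.17 and 377.9 with a median of 27.4. Summed over members, 0.397% of the 12 h library and 0.561% of the 1 h library fell in these windows, a ratio of 0.708 (0.705 to 0.711). The ratios of single members had a median of 0.715 and quartiles of 0.606 and 0.843. The median over all 2436 sites listed at both times was 0.710. When ratios were divided by this median, which shifted all log2 ratios by 0.49, 656 members came out above 1 and 619 below. This split was fixed by the selection, since all 562 sites with a ratio of 1 or more lie above the median and all 599 with a ratio of 0.5 or less below it. The members are called lower at 12 h for tags scaled to the library total.

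**Figure D1:**
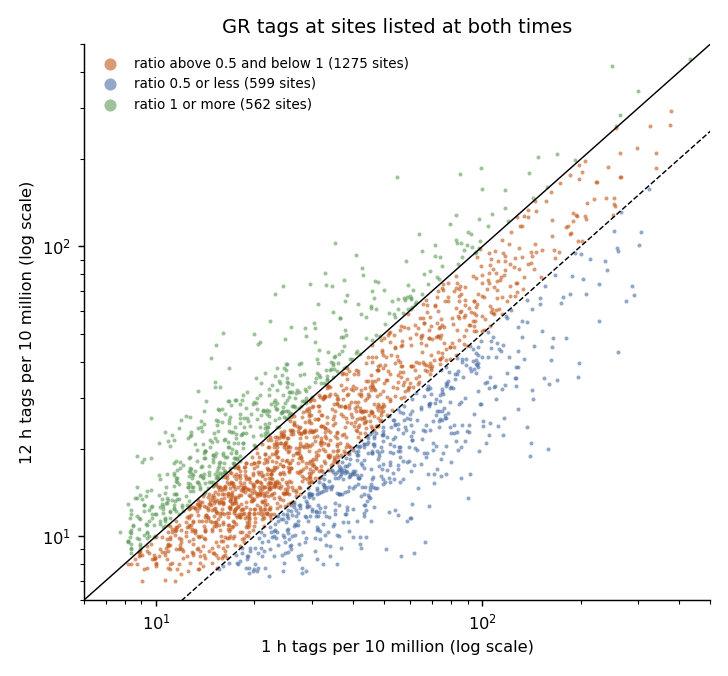
Normalised tags at 12 h (vertical axis, log scale) against 1 h (horizontal axis, log scale) for each site listed at both times, with 1 library per axis. The solid line marks a ratio of 1 and the dashed line 0.5, and the 1275 members lie between them over the whole range of tags.

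Counting error left many single ratios close to a limit. For 906 of the 1275 members the interval lay wholly below 1, and for 369 it included 1. An interval wholly below 1 was found for 61.8% of all sites listed at both times. The rule fixed the direction of the members, so their share is no evidence of its own. The interval lay wholly above 0.5 for 968 members and within both limits for 599. Among all 2436 sites listed at both times it lay wholly above 0.5 for 1530 (62.8%). Here too the rule fixed the direction of the members. No member had an interval that reached both limits. The members just above 0.5 were inside Tgm2, a transglutaminase gene (0.501, 23.9 tags at 12 h and 47.7 at 1 h), inside Rapgef1 (0.501, 19.4 and 38.7) and inside Apool (0.501, 16.9 and 33.7). Just outside, the sites near Itga5 and Picalm and inside Slit3 had a ratio of 0.5, with 37.3 and 74.6, 25.9 and 51.8, and 19.5 and 39.0 tags at 12 h and 1 h. Just below 1 were the sites near Tsc22d3 (0.998, 98.2 and 98.4), Adra1b (0.998, 256.3 and 256.9) and Adamts9 (0.997, 8.80 and 8.83). Sites inside Ppl and Glis3 and near Cdh18 had a ratio of 1 and were not members. The intervals of sites on both sides of either limit overlapped widely.

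Precision grew with tags. When the members were split into quartile groups by their tags at 1 h, the lowest group held the weakest sites. There, at 8.17 to 18.1 tags, 39.5% had an interval below 1 and the median ratio was 0.817. In the next groups 73.0% and 83.0% did, with median ratios of 0.698 and 0.678. In the group with the most tags, 48.9 to 377.9, 88.7% did and the median ratio was 0.677. An interval wholly above 0.5 was found for 83.4%, 70.2%, 69.5% and 80.6%, from the weakest to the strongest group. Both shares depend on how near the ratios lay to the limit as well as on precision. The median interval width on the log2 scale fell from 0.755 in the weakest group to 0.317 in the strongest. The lists themselves bounded the ratios of weak members. The lowest value in the 12 h list was 6.96 tags, and no site with a ratio of 0.5 or less held under 15.6 tags at 1 h, whereas 195 members did. The share of members among sites listed at both times was 25.9% in the weakest decile of the 1 h list, reached 67.8% in the sixth decile (18.3 to 22.0 tags) and was 47.7% in the strongest.

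**Figure D2:**
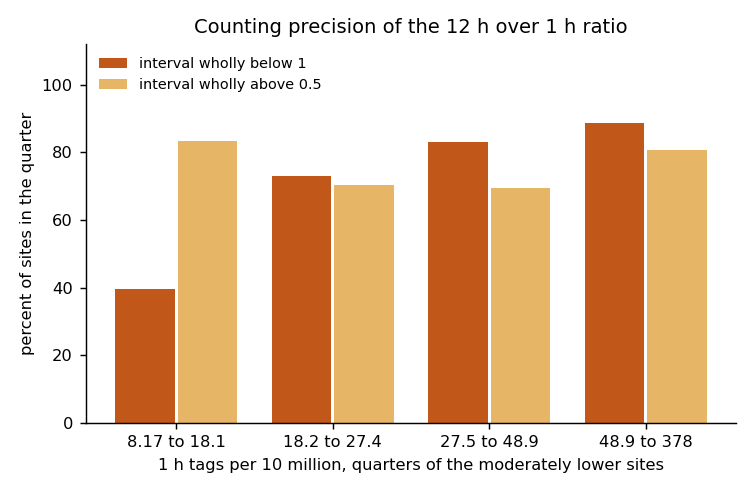
Percent of members (vertical axis) whose 95% counting interval of the 12 h over 1 h ratio lay wholly below 1 (dark bars) or wholly above 0.5 (light bars), by quartile group of the members' normalised tags at 1 h (horizontal axis). The share below 1 was 39.5% in the weakest group and 88.7% in the strongest, and the share above 0.5 was 83.4% and 80.6%.

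Of the 100 sites with the most tags at 1 h 50 were members, 39 had a ratio of 0.5 or less and 9 a ratio of 1 or more. The other 2 were listed at 1 h only. Among sites listed at both times, members were 47.7% in the strongest decile at 1 h and 52.3% in all. High tags at 1 h were therefore not particular to members. The leading member, 51.4 kb from Cdkn2aipnl (chromosome 11, 51916058 to 51916340), held 293.8 tags at 12 h and 377.9 at 1 h, a ratio of 0.777 (0.740 to 0.817). Untreated cells gave 12 raw tags in its 1 h window, or 1.52 normalised tags. The next, 86.1 kb from the methyltransferase gene N6amt1 (chromosome 16, 87267985 to 87268267), held 262.2 and 374.5 tags at 12 h and 1 h, a ratio of 0.70 (0.665 to 0.737), with 16 raw tags untreated. The treated values stood far above the untreated ones at both sites, as the listing requires.

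Among the other leading members the ratios differed by more than counting error. The site inside Tns1, the tensin 1 gene, had 185.8 tags in the 12 h library and 341.6 in the 1 h library (ratio 0.544, 0.513 to 0.577). The site inside Hhat, which encodes the hedgehog acyltransferase, held 210.1 and 339.6 (0.619, 0.585 to 0.655). The site inside Klf13, a Krüppel-like transcription factor gene (chromosome 7, 63896937 to 63897219), held 259.5 and 327.2 (0.793, 0.752 to 0.837). These 3 intervals did not overlap one another. Sites 338 kb from Bpnt2, 22.9 kb from the proton pump subunit gene Atp6v1g1, 10.3 kb from Asb4 and inside Micall1, an endocytic recycling gene, had ratios of 0.737, 0.657, 0.793 and 0.658. The site 91.0 kb from Adra1b, the alpha-1B adrenergic receptor gene (chromosome 11, 43992113 to 43992395), had an interval of 0.943 to 1.06 and could not be told from 1. Relative to the median ratio of all sites listed at both times, 5 of these 10 sites stood above and 5 below. In untreated cells their windows had between 12 and 29 raw tags.

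**Figure D3:**
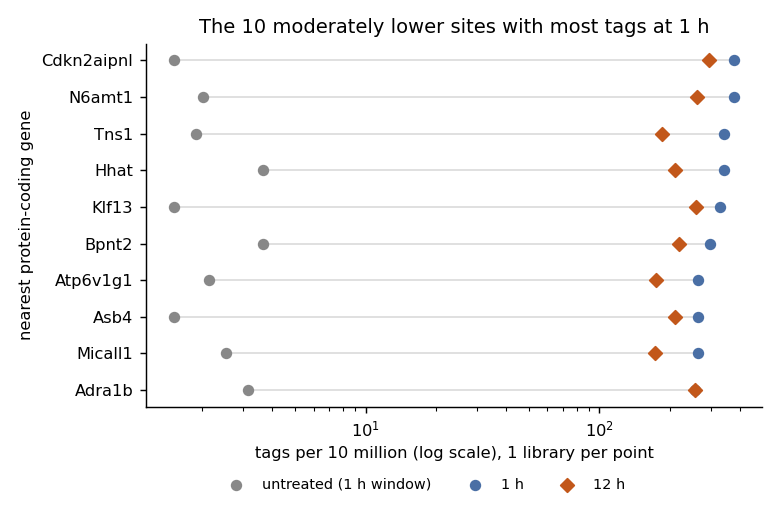
Normalised tags (horizontal axis, log scale) in the untreated, 1 h and 12 h libraries at the 10 members with the most tags at 1 h, named by the nearest protein-coding gene (vertical axis), with 1 library per point. The 12 h point lies left of the 1 h point at 9 sites and covers it at Adra1b (256.3 and 256.9 tags).

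The untreated library, which the rule did not use to order the ratios, held similar background at members and at other sites. Its mean was 11.8 raw tags per 1 h window at members and 11.6 at the other sites listed at both times, which is 1.09 and 1.07 times the 10.8 tags that the caller's average tags per base gives. The median was 11 tags in members, in sites with a ratio of 0.5 or less, in sites with a ratio of 1 or more and in sites listed at 1 h only. Since both treated lists kept just peaks at 6 or more times this library, these values are limited by the listing. At least 2 times the expected background stood at 74 members (5.8%, 4.65 to 7.23%), against 3.51% (2.30 to 5.30%) of sites with a ratio of 0.5 or less and 4.98% (3.47 to 7.11%) of those with a ratio of 1 or more. The intervals overlapped. The most raw untreated tags were at the sites 315 kb from Nr2f2, an orphan nuclear receptor gene (38 raw tags untreated, with 72.2 normalised tags at 12 h and 108.7 at 1 h), and inside Ly6f (37, with 44.1 and 77.1). The sites 12.6 kb from Pmch (35 raw tags), 2.36 kb from the tyrosine kinase gene Fes (34) and inside Susd1 (34) followed, with ratios of 0.916, 0.570 and 0.677. None of the members overlapped the single peak of the untreated list.

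Position relative to genes was also outside the rule. Of the members 41.2% (38.5 to 43.9%) had their centre inside a protein-coding gene span, 23.3% lay outside but within 25 kb, 19.4% between 25 and 100 kb and 16.2% farther away. The share inside was 43.2% (39.3 to 47.2%) for sites with a ratio of 0.5 or less, 37.4% (33.5 to 41.4%) for those with a ratio of 1 or more and 44.5% (42.8 to 46.2%) for those listed at 1 h only (3201 of the 3202 could be placed). The share beyond 100 kb was 16.2% (14.2 to 18.3%) of members and 21.9% (18.7 to 25.5%) of sites with a ratio of 1 or more, and these intervals did not overlap. The difference was not tested, and sites of 1 locus are not independent. Members outside genes lay a median of 39.2 kb from the nearest span, against 35.5 kb for ratios of 0.5 or less, 53.2 kb for ratios of 1 or more and 38.5 kb for sites at 1 h only. Within the members the share inside genes was 43.8% for ratios of 0.5 to 0.6 and 38.7% for ratios of 0.9 to 1, with no steady order between.

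**Figure D4:**
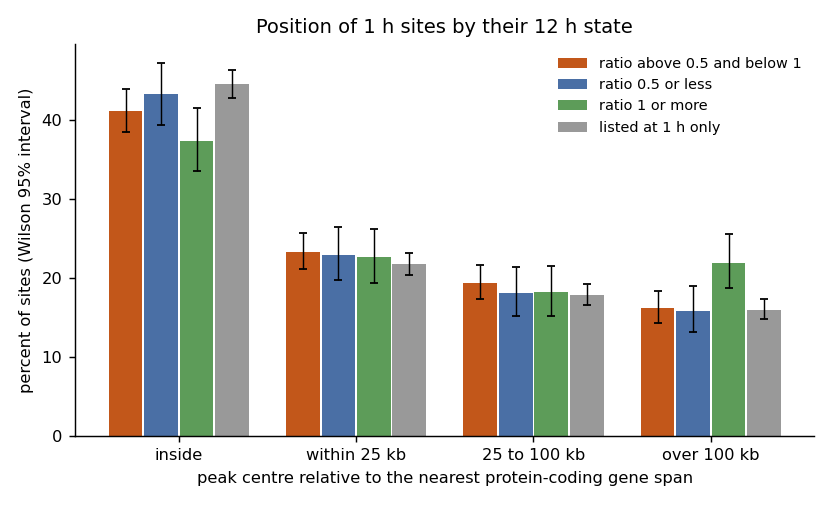
Percent of 1 h sites (vertical axis, bars from 0, with Wilson 95% intervals) by the distance of their centre from the nearest protein-coding gene span (horizontal axis), for members and for the other 3 classes of 1 h sites. Members had 41.2% of their sites inside a gene and 16.2% over 100 kb away.

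On single chromosomes, members made up between 45.2% (36.4 to 54.3%, chromosome 9) and 59.2% (49.3 to 68.4%, chromosome 16) of the sites listed at both times, and these intervals overlapped each other. On the X chromosome the share was 45.5% (34.0 to 57.4%). Another site listed at both times lay within 10 kb of 144 members (11.3%). Of the 159 such links 94 (59.1%) led to another member, against 52.3% of members among all sites listed at both times. Within 50 kb the share of links was 56.6%. For sites with a ratio of 0.5 or less 54.1% of links within 10 kb led to a member, and for sites with a ratio of 1 or more 48.5%. Each link between 2 members counts once from either side, and no test was made. The 12 h and 1 h peak centres lay within 50 bp of each other at 83.6% (81.5 to 85.5%) of members, with a median distance of 19 bp. The median distance was 17 bp for ratios of 0.5 or less and 20 bp for ratios of 1 or more.

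Most genes with a member had just 1. Within the span or 25 kb of it, 1041 of 21887 protein-coding genes (4.76%) had a member, 938 of them a single one, 87 a pair and 16 at least 3. For 576 of the 1041 genes members were the only 1 h sites, while 391 also had a site listed at 1 h only, 105 a site with a ratio of 0.5 or less and 89 a site with a ratio of 1 or more.

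Tns1 had the most, with 6 members inside its span on chromosome 1. From the low to the high end of the span they held 22.5, 170.5, 94.7, 13.3, 185.8 and 45 tags at 12 h. At 1 h the same sites held 24.2, 198.3, 104.8, 14.9, 341.6 and 81.6 tags. The first 4 had ratios between 0.860 and 0.930, and the last 2 had ratios of 0.544 and 0.551. The intervals of the 2 last sites (0.513 to 0.577 and 0.489 to 0.622) did not overlap those of the first 4, the lowest of which began at 0.696. A further Tns1 site had 14.4 tags in the 12 h library and 45.3 in the 1 h library (ratio 0.318, 0.261 to 0.387), and 4 sites were listed at 1 h only. Untreated raw tags at the 6 members lay between 6 and 24.

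**Figure D5:**
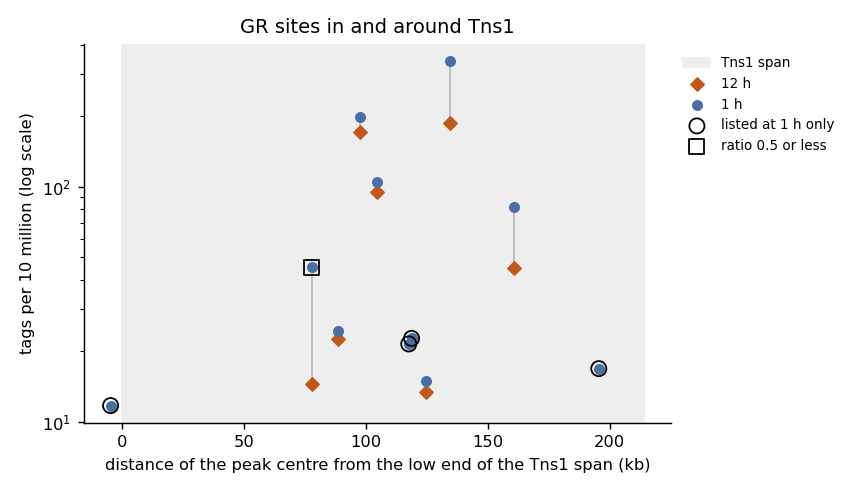
Normalised tags (vertical axis, log scale) at 12 h (diamonds) and 1 h (circles) for each 1 h site in or within 25 kb of Tns1, by distance from the low end of the gene span (horizontal axis, kb). Grey lines join the 2 libraries at 1 site, the open square marks the site with a ratio of 0.5 or less and open circles the 4 sites listed at 1 h only, and the members at 134 and 161 kb show the widest gaps among the 6 members.

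The other genes with many members also mixed ratios. Csmd3, a very long gene for a transmembrane protein, had 5 members with ratios between 0.527 and 0.929. Beside them were sites of 0.394, 1.36 and 1.47 and 3 sites listed at 1 h only. Nox4, which encodes a hydrogen peroxide producing NADPH oxidase, had 4 members, the strongest with 191.6 tags at 12 h and 198.0 at 1 h (ratio 0.968, 0.907 to 1.03). Another Nox4 member held 48.1 and 65.0 tags (0.740, 0.653 to 0.836), and a non-member of the gene had a ratio of 0.409. Rad51b, a recombination gene, had 4 members whose ratios lay between 0.718 and 0.844 with overlapping intervals, and 2 sites listed at 1 h only. Of the 12 genes with 3 members, Mtor, the growth kinase gene, had the most 1 h tags in them. Its members held 35.2, 18.3 and 43.0 tags at 12 h, against 62.6, 35.1 and 49.3 at 1 h, while a site 13.8 kb outside the gene held 20.9 and 102.7 (ratio 0.204, 0.174 to 0.237).

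Of 263 genes on 14 lists, 36 had a member in the span or within 25 kb, whether or not another gene was nearer. These members lay at 50 distinct sites. Of these sites 36 had an interval below 1, a share close to that of all members (906 of 1275), whose direction the rule fixed. Relative to the median ratio of all sites listed at both times, 24 of the 50 stood above and 26 below. Core glucocorticoid target genes had a member in 9 of 28 cases, against 4.76% of all protein-coding genes, and just 2 of the 9, Glul and Ampd3, had no other 1 h site. The list was drawn up with earlier results of these data known, and no test was made. Sites of the same list with a ratio of 0.5 or less were near 9 genes (2.65% of all genes), sites with a ratio of 1 or more near 5 (1.91%) and sites listed at 1 h only near 15 (11.4%). Within 10 kb a member lay near 6 core genes (3.16% of all genes) and within 100 kb near 16 (11.7%).

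Among the core genes, Ampd3 held 104.1 tags at 12 h and 196.2 at 1 h at its stronger member (ratio 0.531, 0.491 to 0.574), with 16 raw tags untreated. Zbtb16, which encodes the transcription factor PLZF, had 143.9 and 145.1 tags at its stronger member (0.992, 0.919 to 1.07), which could not be told from 1. Beside its members it had 4 sites with a ratio of 1 or more, 1 with a ratio of 0.5 or less and 1 listed at 1 h only. Per1, a repressor of the circadian clock, held 90.3 and 106.2 tags at its single member (0.850, 0.775 to 0.933), with 4 raw tags untreated. It also had 1 site with a ratio of 0.5 or less. Tsc22d3, the gene of the glucocorticoid-induced leucine zipper GILZ, had 3 members with ratios of 0.618, 0.621 and 0.591 and intervals below 1, beside 2 sites with a ratio of 1 or more and 1 listed at 1 h only. A further member, at 98.2 and 98.4 tags, lay 26 kb from the gene and thus just outside the 25 kb limit. The remaining genes were Sgk1, Dusp1, Glul, and Mt1 with Mt2, which counted the same site of 12.0 tags at 12 h and 15.3 at 1 h. The intervals of this site (0.605 to 1.004) and of the Glul site (0.821 to 1.11) included 1.

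Factor and signalling lists followed. Of 13 Krüppel-like factor genes 4 had a member: Klf13 (above), Klf2, Klf15 and Klf6. Klf2 had 44.8 tags in the 12 h library and 79.6 in the 1 h library (0.563, 0.499 to 0.635), 15.3 kb from the gene. Klf15, known for glucocorticoid control of amino acid metabolism, held 37.2 and 51.5 at its stronger member (0.722, 0.629 to 0.832), 17.5 kb from the gene. The other Klf15 member held 19.6 and 32.9 (0.596, 0.495 to 0.718). Klf6 held 25.5 and 42.1 (0.606, 0.514 to 0.712), 16.2 kb from the gene. Of 19 clock genes 3 had a member, Per1, Tef and Nfil3. Nfil3, a repressor of clock output genes, had 20.9 tags at 12 h and 31.7 at 1 h (0.659, 0.548 to 0.791). The Tef site lay 12.9 kb from that gene and nearer to Tob2 (8.48 kb). Of 21 insulin and PI3K pathway genes 3 had a member: Mtor, Sgk1 and Foxo3, a forkhead factor gene. Foxo3 held 52.5 and 57.6 tags at its stronger member (0.911, 0.804 to 1.03) and 14.5 and 24.8 at the other (0.585, 0.471 to 0.725). The AP-1 list had 1 of 11, Jund at 12.7 and 13.5 tags (0.941, 0.727 to 1.22), a site inside Iqcn. Growth signal inhibitors had 2 of 18, Dusp1 at 23.5 and 45.7 and Rasa3 at 10.9 and 16.7. The Dusp1 site lay 22.5 kb from the gene. The Rasa3 site lay 17.7 kb from that gene and nearer to Cfap97d2 (10.5 kb). The TGF-beta and BMP list had 2 of 24, Id3 at 22.9 and 33.0 tags and Tgfbr3 at 14.5 and 17.4 (0.833, 0.659 to 1.05). The Jund and Tgfbr3 sites could not be told from 1. The cAMP list had 1 of 22, Pde4d at 51.0 and 95.7 (0.533, 0.477 to 0.596). Of all genes 4.76% had a member and 16.9% a 1 h site of any class. Such a site lay near 7 of the 13 Krüppel-like factor genes, 8 of the 19 clock genes and 7 of the 21 insulin and PI3K pathway genes. Counts of 1 or 2 genes on a list were not read against the 4.76%, and no count was tested.

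Among structural and tissue genes, 5 of 20 actin and adhesion genes had a member, against 4.76% of all genes. Sites with a ratio of 0.5 or less lay near 6 of the 20 (2.65% of all genes) and sites with a ratio of 1 or more near 1 (1.91%). Sites at 1 h only lay near 11 (11.4%), so a site near these genes was not particular to members. Besides Tns1 these were Actn1, the alpha-actinin 1 gene, at 30.6 tags at 12 h and 31.5 at 1 h (0.971, 0.824 to 1.15), Lpp at 11.6 and 18, Mical2 at 10.8 and 17.2, and Tln2. Of 22 mammary epithelial and keratin genes 3 had a member, and the same 3 were the only ones with a 1 h site of any class. Krt7, a keratin of simple epithelia, held 66.2 and 110.5 tags at 12 h and 1 h (0.599, 0.542 to 0.662), and Krt8 and Krt18 counted the same site of 27.5 and 28.9 tags (0.952, 0.799 to 1.13). Of 23 inflammatory genes 3 had a member and 7 a 1 h site of any class. Csf1, a macrophage growth factor gene, had 27.6 tags in the 12 h library and 48.8 in the 1 h library (0.566, 0.485 to 0.660), Cxcl5 held 71.8 and 75 (0.957, 0.861 to 1.07), and Tnfaip3 14.5 and 18.4. On the list of receptor, chaperone and coregulator genes, the chaperone gene Hspa8 had a member at 23.8 and 41.4 (0.575, 0.487 to 0.680). Housekeeping genes had 0 of 15 and immune cell markers 1 of 15, Ncam1. Its stronger site, 16.9 kb from the gene, had 58.4 and 108.3 tags at 12 h and 1 h. Lists of 15 genes are too short to read a 0 or a 1 against the 4.76% of all genes. A 1 h site of any class lay near 5 of the 15 housekeeping genes, against 16.9% of all genes.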

How the data were processed

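GR ChIP-seq peak lists of 33AP1C9 cells were used. Per the submitters' processing notes, bcl2fastq 2.17, Bowtie2 2.2.6, HOMER and mm10 were used. Per the file headers, the authors called peaks per library with HOMER findPeaks (false discovery rate 0.001, tag threshold 75, fold of 6 over the control and the surrounding 10000 bp). The control was the untreated ChIP library for both treated lists and an input library, itself not analysed here, for the untreated list. The deposited normalised tag signal is scaled to 10000000 tags, and its rounding decides ties at the limits. Peak windows span 302 bp at 12 h and 282 bp at 1 h. The untreated list's tag count was deposited raw. Treated totals, deposited at the untreated library's size, were scaled back to raw tags, which were whole within 0.1 for 100% of peaks. Untreated raw tags in treated windows were deposited whole, with 0.5 read as 0. The deposited score, focus ratio (a fraction), fold ratios and p-value columns of the authors entered no result.

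Each 1 h peak was paired with the overlapping 12 h peak of nearest centre. Ratio intervals are Clopper-Pearson and shares have Wilson intervals, at 95%. These cover counting error only, since reads carried no stated molecular identifiers and may not be independent molecules. Scripts were tested on simulated data. Genes and promoter windows are RefSeq, GRCm38.p6, the assembly of mm10, and all 263 list genes matched; no genome sequence was used. The orientation of promoter windows was checked on 1681 overlapping pairs on opposite strands. Python 3.11.15, scipy 1.17.1 and pandas 2.3.3 were used. The members and gene lists were chosen with earlier results of these data known. Named are the 10 members with most 1 h tags, 3 on each side of either limit, the 5 with most untreated tags, the 5 with the widest centre distance, the 8 protein-coding promoter members, the 5 genes with most members and up to 4 genes per list, and the rest of short counts, named after their values were seen; some items under this rule are not reported here. Alternatives varied scaling, pairing, peak threshold, gene window and annotation.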

Additional observations from a re-analysis of the deposited data

How the results depend on the processing

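Pairing by centres within 100 bp or by an overlap of 0.5 of the narrower peak left 1221 and 1260 members, all among the 1275. Taking tags per base of the window gave 1301 members and a summed ratio of 0.699. Dividing by the median ratio of sites listed at both times gave 990 members, 40.6% of those sites, with a summed ratio of 0.753, and 48.5% of the 1275 remained members. With both peaks at 2 or more times the tag threshold 806 members were left. Ratios from recovered whole tags, chosen after seeing the data, gave 1285 members and 10 core genes. Counting spans of all annotated genes put 50.6% of members inside a gene. Core target genes with a member numbered 6 within 10 kb (3.16% of all protein-coding genes) and 16 within 100 kb (11.7%). Under the other combinations of these results and settings the values stayed within 1.5 times for counts and within the interval of the reported value for shares and ratios. The median width of the counting interval was 0.75 on the log2 scale in the quartile group with the fewest 1 h tags and 0.32 in that with the most. No paired analysis was possible because each condition has a single library, numbered 1.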

Other observations

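At a few members the 12 h and 1 h peak centres lay far apart, so that the paired windows barely overlapped. The widest distance was 281 bp, 11.3 kb from Clvs1, which encodes a lipid-binding protein of neurons, where the windows held 13.3 tags at 12 h and 21.5 at 1 h. At the site inside Oacyl the distance was 280 bp, with 16.9 and 23.0 tags. In the untreated library the 12 h window there held 13 raw tags and the 1 h window 4. The sites 76.4 kb from Eif3h and 3.70 kb from Mmp20 were also among the widest, with ratios of 0.908 and 0.966. For these pairs the ratio compares different stretches of DNA.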
